A study of Mus musculus with 16 samples.

Results

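The genes described here encode the enzymes, other than cytochromes P450, that handle foreign compounds and aldehydes in mouse tracheal epithelial cell cultures (MTECs). They are the protein-coding genes whose symbols mark 10 families: the flavin-containing monooxygenases (Fmo), aldehyde dehydrogenases (Aldh), alcohol dehydrogenases (Adh), aldo-keto reductases (Akr), UDP-glucuronosyltransferases (Ugt), sulfotransferases (Sult), carboxylesterases (Ces), paraoxonases (Pon), aldehyde oxidases (Aox) and carbonyl reductases (Cbr). Of 49315 identifiers in the deposited table, 124 belonged to these families. Of these, 73 had at least 10 counts in at least 2 of the 16 libraries, 51 did not, and 23 of the 51 had no count in any library. The 73 were 19 Aldh, 11 Akr, 11 Ces, 8 Sult, 5 Fmo, 5 Ugt, 4 Adh, 4 Cbr, 3 Aox and 3 Pon genes. The Sult and Ugt families lost most of their members to this minimum, with 8 of 21 and 5 of 22 left. All 3 Pon and all 4 Cbr genes were kept. All but Ces2c, 72 genes, passed edgeR's filter on low counts and were tested, together with 15993 genes in all.

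Oxidising enzymes (Fmo, Adh, Aldh, Aox), reducing enzymes (Akr, Cbr) and hydrolases (Ces, Pon) introduce or expose a reactive group on a foreign or endogenous molecule, and transferases (Sult, Ugt) then attach sulfate or glucuronic acid so that the product can be excreted. Several also have endogenous substrates, such as retinoids for Adh and Aldh1a enzymes and steroids for Akr1c enzymes. In the airway these enzymes are best known from secretory club cells, which meet inhaled compounds first.

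MTECs were grown from male (M) and female (F) mice that were wild type (WT) or labelled knockout (KO) for LMAN1, a cargo receptor of the early secretory pathway that also binds house dust mite (HDM) at the cell surface. The mice were on a C57BL/6J background. The cultures were differentiated at an air-liquid interface on inserts, with tracheas pooled between conditions, and were then left untreated (naive) or given HDM extract at 20 µg/ml overnight. Each combination of sex, genotype and treatment had 2 libraries, labelled as biological replicates, which gave 8 groups. Age was not among the labels. The p-values given here measure only the spread between these libraries. Totals ran from 21860698 to 43442188 counts. The Y-linked genes and Xist matched the labelled sex in all 16 libraries. Lman1, the targeted gene, had a level of 120.5 ± 14.3 CPM (SD, n = 8; CPM are read counts after TMM scaling of the library sizes) in WT libraries and lay at 10.6% to 11.8% of that mean in 3 libraries labelled KO, but at 52.6% to 64.8% in the other 5. These 5 were both F KO HDM libraries, both M KO HDM libraries and M KO naive replicate 2, so every KO result after HDM rests on libraries whose Lman1 level does not separate them from WT as the 3 others do. Scgb1a1, the defining secretoglobin of club cells, was low throughout, from 0.0474 to 3.75 CPM, while the 7 club cell markers summed to 14490 to 20280 CPM in male libraries. The hepatocyte markers Alb, Apoa1, Ttr and Fgb held at most 3 counts each in both libraries of every group.

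Levels of different genes are compared only per kilobase of exon, as RPKM. By this measure Cbr2, the lung carbonyl reductase, stood first with a mean of 4094 RPKM over the 16 libraries, and held 38.6% to 53.3% of the summed CPM of all 73 genes in the 12 libraries that were naive or male. Ces1d, a carboxylesterase that also hydrolyses stored triglycerides, followed at 569 RPKM. Next were Akr1a1, the broad-range aldehyde reductase, at 266 RPKM, Aldh1a1, which oxidises retinal to retinoic acid, at 195 RPKM, and Aldh2, the mitochondrial acetaldehyde dehydrogenase, at 109 RPKM. Fmo2, the flavin-containing monooxygenase of lung, had a mean of 91.1 RPKM. The highest sulfotransferase, Sult1d1, had 7.23 RPKM and the highest glucuronosyltransferase, Ugt1a6b, 1.52 RPKM, below the highest member of every other family. Ugt1a6b shares 60.6% of its exon length with other genes. How reads there were counted was not given, so its rank is uncertain.

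**Figure D1:**
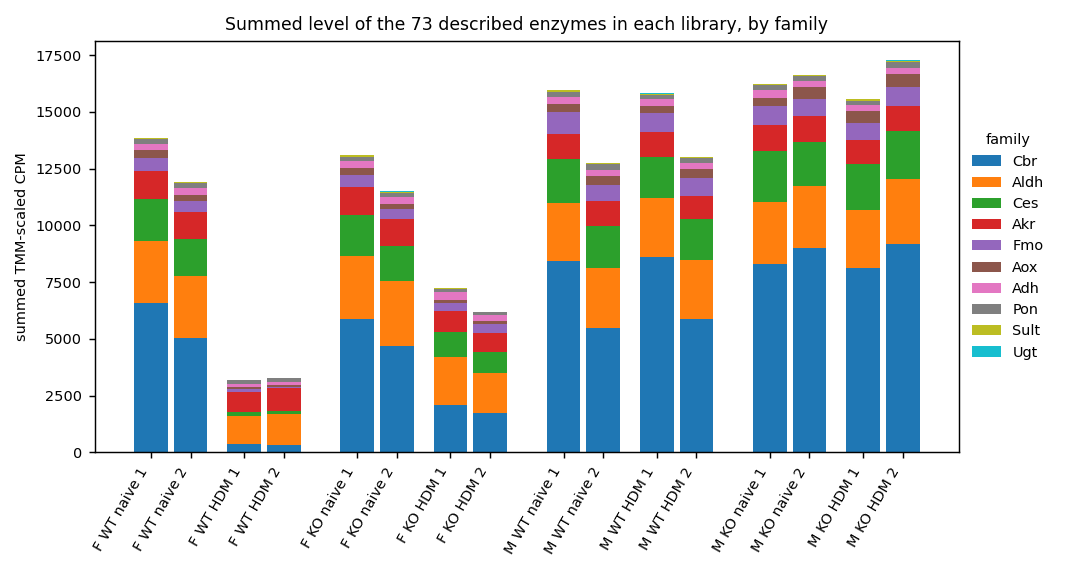
Summed TMM-scaled CPM of the 73 described genes (vertical axis) in each of the 16 libraries, stacked by family. The F WT HDM libraries sum to 3194 and 3290 CPM and the F KO HDM libraries to 7228 and 6200 CPM, against 11500 to 17280 CPM in the other 12 libraries, and the missing part is mainly Cbr, Ces and Aldh.

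Sequence around the gene starts is shown for 5 members on which the results turn: Cbr2 (ENSMUSG00000025150), the most abundant, Aldh1a1 (ENSMUSG00000053279), with the smallest p for the HDM response of F WT cultures, Adh7 (ENSMUSG00000055301), whose response differed between genotypes, Sult1d1 (ENSMUSG00000029273), with the largest fitted fall, and Adh5 (ENSMUSG00000028138), which lies in the same gene cluster as Adh7 and did not pass the test. The windows run from 250 bases before to 50 bases after the RefSeq start on GRCm38, read on the gene's strand, and capitals mark CG dinucleotides. They lie at chr11:120731972-120732271 (minus strand) for Cbr2, chr19:20492333-20492632 (plus) for Aldh1a1, chr3:138217523-138217822 (plus) for Adh7, chr5:87568957-87569256 (minus) for Sult1d1 and chr3:138442843-138443142 (plus) for Adh5.
Cbr2: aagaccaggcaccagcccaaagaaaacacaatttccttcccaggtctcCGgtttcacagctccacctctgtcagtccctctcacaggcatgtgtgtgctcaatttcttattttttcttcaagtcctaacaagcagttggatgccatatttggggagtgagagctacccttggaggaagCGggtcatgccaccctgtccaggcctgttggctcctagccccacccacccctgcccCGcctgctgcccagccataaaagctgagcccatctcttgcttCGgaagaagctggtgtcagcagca
Aldh1a1: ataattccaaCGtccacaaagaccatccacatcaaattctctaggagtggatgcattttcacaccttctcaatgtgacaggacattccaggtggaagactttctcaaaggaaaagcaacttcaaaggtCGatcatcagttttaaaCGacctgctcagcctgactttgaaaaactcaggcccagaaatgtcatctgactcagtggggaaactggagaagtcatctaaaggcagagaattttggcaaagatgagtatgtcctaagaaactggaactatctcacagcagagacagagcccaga
Adh7: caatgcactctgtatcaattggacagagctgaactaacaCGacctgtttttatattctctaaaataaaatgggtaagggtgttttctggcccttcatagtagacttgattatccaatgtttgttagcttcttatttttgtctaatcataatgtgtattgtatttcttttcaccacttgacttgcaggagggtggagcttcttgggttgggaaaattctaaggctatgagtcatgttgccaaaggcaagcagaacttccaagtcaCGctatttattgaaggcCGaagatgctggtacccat
Sult1d1: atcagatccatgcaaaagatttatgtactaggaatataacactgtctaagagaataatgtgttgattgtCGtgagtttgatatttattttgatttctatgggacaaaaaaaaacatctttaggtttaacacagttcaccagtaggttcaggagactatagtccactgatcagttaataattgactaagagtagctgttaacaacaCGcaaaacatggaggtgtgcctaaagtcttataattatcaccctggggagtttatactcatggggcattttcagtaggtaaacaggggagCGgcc
Adh5: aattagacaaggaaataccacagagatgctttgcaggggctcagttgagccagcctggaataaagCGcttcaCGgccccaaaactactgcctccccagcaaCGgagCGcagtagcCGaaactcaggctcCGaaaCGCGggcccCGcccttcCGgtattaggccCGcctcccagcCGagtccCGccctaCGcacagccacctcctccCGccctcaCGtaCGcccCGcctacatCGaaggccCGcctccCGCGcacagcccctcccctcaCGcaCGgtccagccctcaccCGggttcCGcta

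The windows of Cbr2, Aldh1a1, Adh7 and Sult1d1 hold 4, 3, 3 and 3 CG dinucleotides, and that of Adh5 holds 26. A window was found for 59 of the 73 genes. Over the 32851 RefSeq windows of the same length the median was 7. Among the 58 tested members with a window, the median was 3 (0 to 10) for the 23 that fell by at least 2 on the log2 scale in F WT cultures, and 22 of these had fewer than 10. The median was 10 (3 to 24) for the 12 that fell by less and 7 (2 to 31) for the 4 that rose. It was 10 (0 to 50) for the 19 that did not pass the test. Fewer than 10 were found in 6 of the 12, 3 of the 4, 9 of the 19 and 18570 of the 32851 RefSeq windows. These classes come from the HDM response itself, so the values are a description without a test. The 23 include Ugt1a1, which had no count in either F WT HDM library, so the size of its fall is not known. Of the motifs searched on both strands, GCGTG, the core bound by the aryl hydrocarbon receptor and itself counted among the CG dinucleotides, was in 17 of the 59 windows and in 32.4% of all RefSeq windows. TGACNNNGC, the core of the antioxidant response element, was in 6 of the 59 windows and in 12.4% of all, and in none of the 23. TATAAA was in 10 of the 59 and in 13.6% of all. The classes follow in the order falls of at least 2, smaller falls, rises and members that did not pass. GCGTG was in 4 of 23, 4 of 12, 2 of 4 and 7 of 19 windows. In the same order TGACNNNGC was in 0, 2, 1 and 3 windows and TATAAA in 6, 0, 0 and 4.

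**Figure D2:**
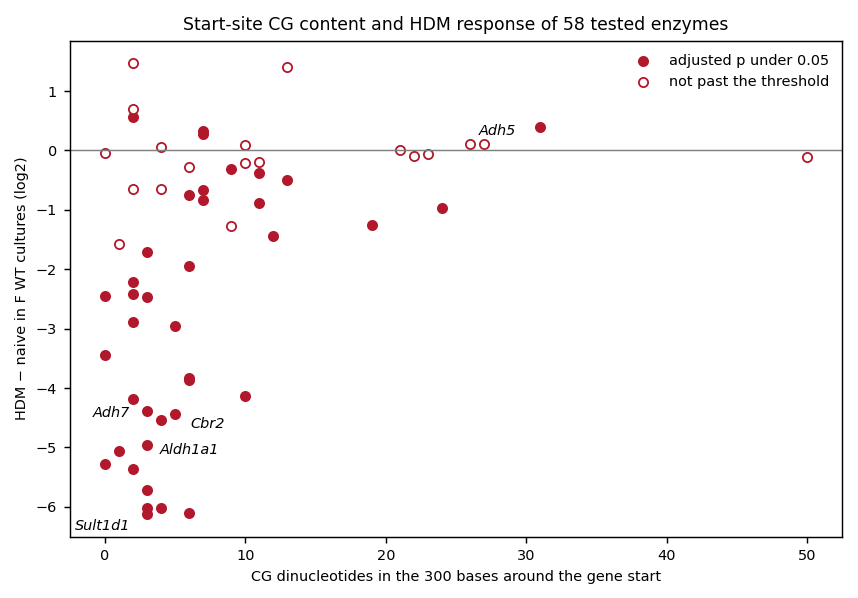
HDM response of 58 tested genes in F WT cultures (log2 HDM minus naive, vertical axis) against the number of CG dinucleotides in the 300 bases around the gene start (horizontal axis); filled circles passed an adjusted p of 0.05. The falls of at least 2 all lie at 10 CG dinucleotides or fewer, while members with more than 20 lie between -1 and 0.5.

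In F WT cultures most of these enzymes were lower after HDM. Of 72 members tested, 43 fell and 7 rose (edgeR, adjusted p under 0.05), with a median log2 difference of -1.26 against -0.02 over all tested genes. Among all 15993 genes 43.1% were called, 22.4% lower and 20.6% higher, so the share of members that fell, 59.7%, stood beside a background of 22.4%, and the share that rose, 9.72%, beside one of 20.6%. Of the 43 that fell, 35 fell by at least 1, 29 by at least 2 and 17 by at least 4 on the log2 scale, and the rises were small, with a median of 0.42. The summed CPM of the 73 genes was 13850 and 11910 in naive and 3194 and 3290 in HDM libraries, which left 25.2% of the naive level. By family the HDM sum was 5.98% of naive for Cbr, 8.70% for Ces, 12.0% for Ugt, 13.1% for Fmo, 25.4% for Sult, 29.7% for Aox, 47.8% for Aldh, 50.9% for Adh, 77.8% for Akr and 89.8% for Pon. Ugt1a1 had no count in either F WT HDM library, so its fitted fold has no meaning, although the counts by size above include it. With it set at the bound that 3 counts per library give, the median was -1.23.

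Markers of several cell types fell with these enzymes. All 7 club cell markers fell in F WT cultures, from sums of 13190 to 17440 CPM in naive to 3766 to 4656 CPM in HDM libraries, and Scgb1a1 was at 3 counts or fewer in both. The 5 goblet cell markers fell too, from 86.5 to 88.3 CPM down to 2.75 to 3.08 CPM, as did 5 of 6 basal cell markers (9480 to 10350 against 1970 to 3977 CPM) and 4 of 7 ciliated cell markers (105 to 144 against 89.5 to 98.5 CPM). Squamous markers summed to 445 to 742 CPM in naive and 184 to 385 CPM in HDM libraries, with 2 of 6 tested lower and 1 higher. Smooth muscle markers summed to 55.5 to 133 CPM in naive and 274 to 444 CPM in HDM libraries. Of the 3 smooth muscle markers tested none was called, and their median log2 difference was -0.605. The fibroblast markers differed within groups (26.7 and 538 CPM in naive, 48.9 and 595 CPM in HDM libraries). Of the 7 fibroblast markers 2 were called higher and 0 lower, with a median log2 difference of 1.27. Leukocyte markers summed to 219 to 264 CPM in naive and 93.7 to 98.9 CPM in HDM libraries, with 2 of 4 tested lower. Endothelial markers stayed under 2 CPM. In bulk RNA, fewer cells of a type and less RNA per cell cannot be told apart, and the part of these markers' changes in the enzymes' changes was not tested.

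**Figure D3:**
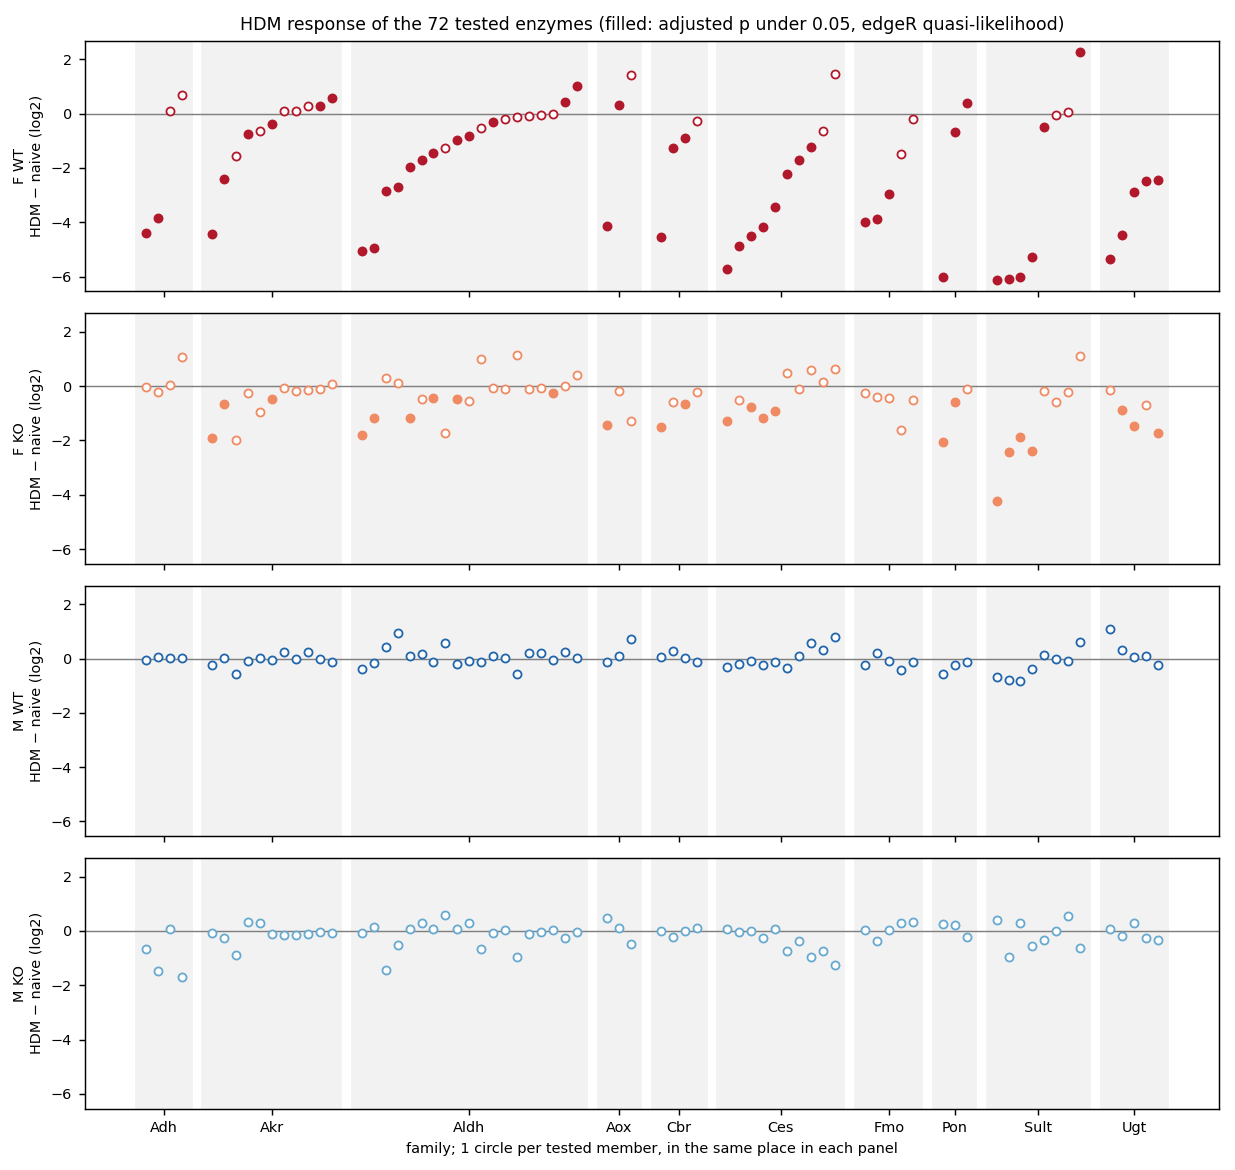
HDM response (log2 HDM minus naive, vertical axis) of the 72 tested genes in F WT, F KO, M WT and M KO cultures, grouped by family with each gene in the same horizontal place in all panels; filled circles passed an adjusted p of 0.05 (edgeR). F WT has 50 filled circles and F KO 25, while both male panels have none and lie between -1.68 and 1.10.

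Among the oxidising enzymes, Fmo6 and Fmo2 fell in F WT cultures. Fmo6 had 33.0 and 32.1 CPM in F WT naive, 1.96 and 2.51 in F WT HDM, 33.3 and 27.0 in F KO naive and 22.6 and 23.5 in F KO HDM libraries. In males it had 83.4 and 45.4 in WT naive, 88.8 and 60.65 in WT HDM, 78.3 and 45.0 in KO naive and 44.2 and 52.2 CPM in KO HDM libraries. Both F WT HDM libraries thus lay far below the other 14, and the male libraries lay above the female ones. Fmo6 fell by 3.87 ± 0.38 on the log2 scale in F WT cultures (SE; edgeR, adjusted p = 1.66e-05). Fmo2 fell by 2.96 ± 0.30, from 519 and 434 to 84.9 and 37.8 CPM.

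Of the 4 alcohol dehydrogenases, Adh7, the class IV enzyme of surface epithelia that oxidises ethanol and retinol, was the highest per length. It had 147 and 169.6 CPM in F WT naive, 8.41 and 6.63 in F WT HDM, 165 and 173 in F KO naive and 196 and 131 in F KO HDM libraries. In males Adh7 had 171 and 149 in WT naive, 164 and 142 in WT HDM, 210.1 and 126 in KO naive and 95.3 and 117 CPM in KO HDM libraries. Only the F WT HDM libraries fell outside the range of 95.3 to 210.1 CPM. It fell by 4.39 ± 0.28 in F WT cultures (edgeR, adjusted p = 7.67e-07). Adh1, the class I enzyme, fell by 3.82 ± 0.57, from 6.36 and 6.95 to 0.416 and 0.521 CPM. Adh5, the formaldehyde- and nitrosoglutathione-metabolising class III enzyme, stayed between 126 and 147 CPM in all 16 libraries, and its difference was 0.11 ± 0.06 (adjusted p = 0.148). These genes are neighbours on the plus strand of chromosome 3 (GRCm38), with Adh7 at chr3:138217760-138233382, Adh1 at chr3:138260991-138290698 and Adh5 at chr3:138443093-138455499.

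Of 19 aldehyde dehydrogenases tested, 10 fell and 2 rose in F WT cultures. Aldh1a1 (chr19:20492715-20643465, plus strand) had 1310 and 1261 CPM in F WT naive, 42.3 and 40.1 in F WT HDM, 1315 and 1313 in F KO naive and 647 and 524 in F KO HDM libraries. In males it had 1048 and 1129 in WT naive, 948 and 994 in WT HDM, 1093 and 1224 in KO naive and 1161 and 1378 CPM in KO HDM libraries. Replicates were close to each other, the F WT HDM libraries were the lowest, and the F KO HDM libraries came next. Aldh1a1 fell by 4.96 ± 0.14 in F WT cultures, to 3.20% of the naive level (adjusted p = 5e-09). Its close relative and neighbour Aldh1a7 fell by 5.06 ± 0.22, from 249.7 and 205 to 6.28 and 7.34 CPM. The 2 genes share few 50-base stretches of exon (3.06% of those of Aldh1a1 and 7.49% of those of Aldh1a7), so most reads can be told apart. Aldh3b1, which acts on lipid-derived aldehydes, fell by 1.95 ± 0.14. Aldh2 and Aldh7a1, which acts in lysine breakdown, were the 2 that rose, by 0.42 ± 0.12 and 1.03 ± 0.14. Aldh7a1 had 112 and 112 CPM in naive and 210.2 and 248 CPM in HDM libraries, while Aldh2 lost its call without F WT naive replicate 1 (adjusted p = 0.0601) or F WT HDM replicate 2 (adjusted p = 0.0947).

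The 3 aldehyde oxidases, molybdenum enzymes encoded next to each other on the plus strand of chromosome 1 (GRCm38), went separate ways. Aox3 (chr1:58113130-58200698) had 269 and 207 CPM in F WT naive, 14.9 and 12.1 in F WT HDM, 242 and 180.1 in F KO naive and 79.7 and 78.6 in F KO HDM libraries. In males Aox3 had 267 and 290.3 in WT naive, 211 and 298 in WT HDM, 231 and 426 in KO naive and 433 and 485 CPM in KO HDM libraries. The 4 female HDM libraries were below all others. Aox3 fell by 4.14 ± 0.30 in F WT cultures (edgeR, adjusted p = 1.87e-06). Aox1 (chr1:58029931-58106413) had 62.0 and 57.0 CPM in F WT naive and 77.7 and 71.3 CPM in F WT HDM libraries, a rise of 0.33 ± 0.08. That rise lost its call without F WT naive replicate 2 (adjusted p = 0.0728) or F WT HDM replicate 1 (adjusted p = 0.0504). Aox4 stayed under 0.63 CPM throughout and did not pass the test (1.41 ± 0.63).

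The reducing enzymes moved in both directions. Of 11 aldo-keto reductases, 4 fell and 2 rose in F WT cultures. Akr1c18, the 20-alpha-hydroxysteroid dehydrogenase that inactivates progesterone, had 97.6 and 103 CPM in F WT naive, 3.496 and 5.87 in F WT HDM, 102 and 97.7 in F KO naive and 29.5 and 23.2 in F KO HDM libraries. In males it had 78.1 and 69.1 in WT naive, 68.5 and 57.8 in WT HDM, 82.7 and 64.3 in KO naive and 65.6 and 73.9 CPM in KO HDM libraries. The 4 female naive libraries were the highest of all and the 4 female HDM libraries the lowest. Akr1c18 fell by 4.43 ± 0.22 (adjusted p = 1.49e-07), and Akr1c14, a 3-alpha-hydroxysteroid dehydrogenase, by 2.41 ± 0.21, from 3.20 and 3.17 to 0.666 and 0.521 CPM. Akr1e1, which reduces anhydrofructose, fell by 0.74 ± 0.12 and the broad-range Akr1a1 by 0.38 ± 0.08. Akr1c13 rose by 0.56 ± 0.12, and Akr1b10 rose by 0.27 ± 0.10 (adjusted p = 0.0458), a call lost when only the compared libraries were fitted, with 3 other settings of scaling and filter, and with any of the 4 libraries left out. Akr1c12 and Akr1c13 share 28.6% and 24.2% of their 50-base exon stretches with each other, so their counts are uncertain.

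Cbr2 had 6373 and 4820 CPM in F WT naive, 253 and 226 in F WT HDM, 5677 and 4441 in F KO naive and 1919 and 1599 in F KO HDM libraries. In males Cbr2 had 8275 and 5327 in WT naive, 8435 and 5686 in WT HDM, 8117 and 8811 in KO naive and 7958 and 9000 CPM in KO HDM libraries. All male libraries lay above the female HDM libraries. Cbr2 fell by 4.54 ± 0.28 in F WT cultures, and its share of the summed CPM of the 73 genes went from 46.0% and 40.5% to 7.93% and 6.88%. Akr1a1 and Aldh2 held the largest CPM shares there, at 18.8% and 19.7% for Akr1a1 and 18.7% and 21.2% for Aldh2. CPM are not corrected for gene length. Per kilobase, Cbr2 (mean of 180.7 RPKM) still stood above Aldh2 (126.5 RPKM) there and below Akr1a1 (227 RPKM). Cbr1, a reductase of prostaglandins and quinones, fell by 0.89 ± 0.09, from 109 and 110.0 to 57.8 and 60.5 CPM, and Cbr3 fell by 1.25 ± 0.25. Cbr4 did not pass the test (-0.29).

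**Figure D4:**
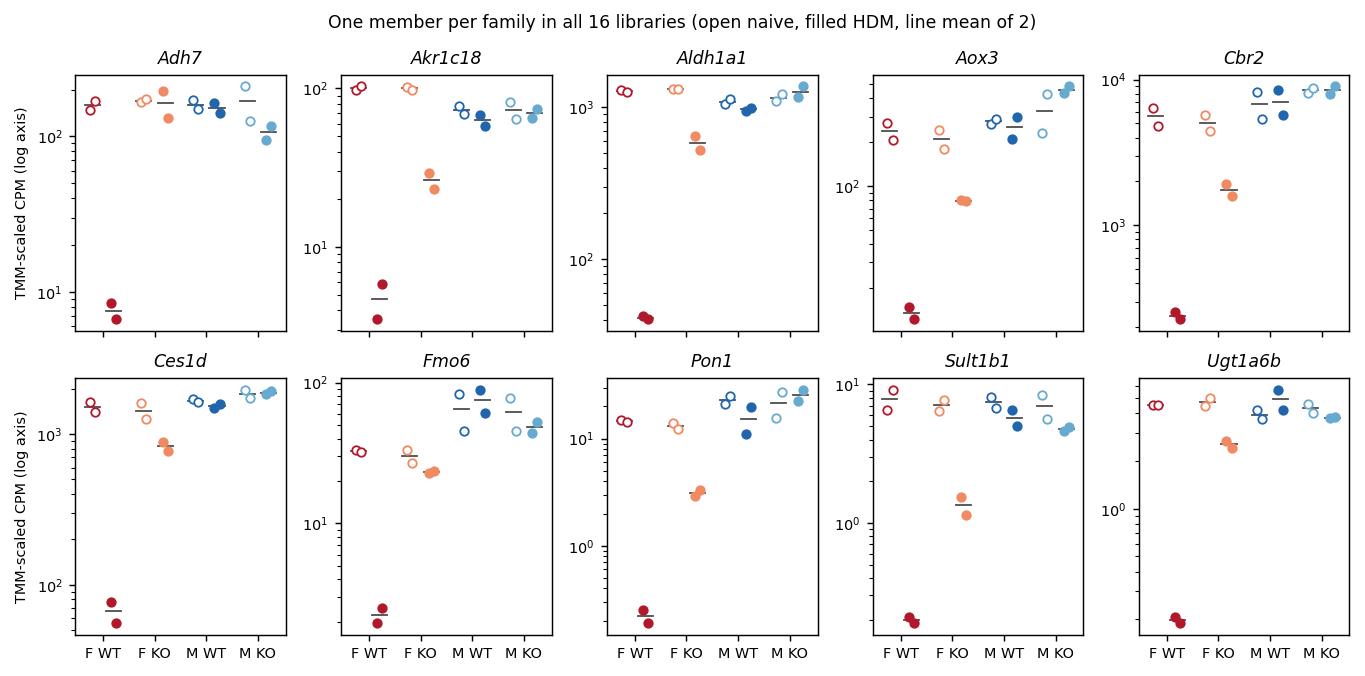
TMM-scaled CPM (log axis) in each of the 16 libraries for 1 gene of each family, among the 3 with the smallest p for the HDM response in F WT cultures; open circles are naive, filled circles HDM, and the line is the mean of 2 libraries. In all 10 panels the F WT HDM libraries are the lowest, and in all but Adh7 the F KO HDM libraries come next.

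Of 10 carboxylesterases tested, 8 fell and none rose in F WT cultures. Ces1d had 1645 and 1397 CPM in F WT naive, 77.6 and 55.8 in F WT HDM, 1596 and 1268 in F KO naive and 884 and 776 in F KO HDM libraries. In males it had 1708 and 1622 in WT naive, 1501 and 1588 in WT HDM, 1966 and 1744 in KO naive and 1831 and 1919 CPM in KO HDM libraries. The F WT HDM libraries were the lowest and the F KO HDM libraries came next. Ces1d fell by 4.51 ± 0.18 and Ces1e by 3.44 ± 0.14 (adjusted p = 6.66e-08 for both), and Ces1f fell by 4.89 ± 0.39, from 39.7 and 27.6 to 1.25 and 0.995 CPM. The Ces1 genes lie side by side on the minus strand of chromosome 8 (GRCm38), Ces1d at chr8:93166068-93197838, and all 6 tested fell by 2.21 to 5.71. The Ces2 genes, chosen here after their values were seen, lie in a second cluster on that chromosome and moved less, with falls of 1.71 for Ces2f and 1.22 for Ces2b, and values of -0.66 for Ces2g and 1.47 for Ces2e that did not pass the test.

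The 3 paraoxonase genes are neighbours on the minus strand of chromosome 6 (GRCm38). Pon1, the secreted lactonase carried on high-density lipoprotein (chr6:5168090-5193946), had 15.0 and 14.3 CPM in F WT naive, 0.2497 and 0.189 in F WT HDM, 14.1 and 12.3 in F KO naive and 2.91 and 3.33 in F KO HDM libraries. In males it had 21.3 and 24.9 in WT naive, 11.0 and 19.8 in WT HDM, 15.5 and 27.3 in KO naive and 22.5 and 28.6 CPM in KO HDM libraries. Female HDM libraries were again the lowest. Pon1 fell by 6.02 ± 0.45 in F WT cultures (adjusted p = 2.41e-06). Pon3 fell by 0.67 ± 0.17, from 92.0 and 84.9 to 57.7 and 53.5 CPM, and Pon2, an intracellular member, rose by 0.40 ± 0.11. Without F WT naive replicate 1 or F WT HDM replicate 2, Pon3 (adjusted p = 0.0532 and 0.0711) and Pon2 (adjusted p = 0.0755 and 0.0841) lost their calls.

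Of the 8 sulfotransferases tested, 5 fell and 1 rose in F WT cultures. Sult1b1, which sulfates thyroid hormones, had 6.54 and 9.15 CPM in F WT naive, 0.208 and 0.189 in F WT HDM, 6.44 and 7.74 in F KO naive and 1.53 and 1.15 in F KO HDM libraries. In males Sult1b1 ranged from 4.64 to 8.34 CPM. Sult1d1, which sulfates catecholamines, had 16.5 and 15.0 CPM in F WT naive, 0.167 and 0.284 in F WT HDM, 23.7 and 13.5 in F KO naive and 0.767 and 1.18 in F KO HDM libraries, and from 14.3 to 44.1 CPM in males. For both, the 4 female HDM libraries lay below the other 12. Sult1d1 fell by 6.12 ± 0.42 and Sult1b1 by 5.27 ± 0.35. Sult1c1 had 81 and 149 counts in F WT naive and 0 and 2 counts in F WT HDM libraries, a ratio of 72.1 with an exact 95% counting interval of 19.7 to 599. Sult4a1, a sulfotransferase best known from brain, rose by 2.27 ± 0.52 from a low level, with 0.436 and 0.787 CPM in naive and 2.04 and 4.03 CPM in HDM libraries.

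All 5 glucuronosyltransferases tested fell in F WT cultures, from levels under 10 CPM. Ugt1a6b had 4.54 and 4.52 CPM in F WT naive, 0.208 and 0.189 in F WT HDM, 4.45 and 5.02 in F KO naive and 2.66 and 2.44 in F KO HDM libraries, and 3.67 to 5.64 CPM in males. Ugt1a7c had 7.88 and 8.38 CPM in F WT naive, 0.832 and 1.37 in F WT HDM, 8.81 and 9.48 in F KO naive and 3.55 and 2.97 in F KO HDM libraries, and 6.08 to 8.53 CPM in males. In both genes the F WT HDM libraries were lowest and the F KO HDM libraries next. Ugt1a6b fell by 4.48 ± 0.25, Ugt1a7c by 2.89 ± 0.22 and Ugt1a6a, like Ugt1a6b a phenol-conjugating form, by 2.46 ± 0.37. The Ugt1a genes are alternative first exons joined to shared later exons on chromosome 1, and 52.1% to 79.8% of the 50-base exon stretches of these 4 genes occur in another gene. Counts for single Ugt1a genes are therefore uncertain.

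In F KO cultures fewer of these enzymes moved. Of the 72 tested, 25 fell and 0 rose in F KO cultures, with a median of -0.44, while 10.4% of all tested genes were called, 5.77% lower and 4.63% higher. DESeq2 also gave 25 that fell and 0 that rose, and 37 members had an unadjusted p under 0.05 in edgeR. The summed CPM was 13100 and 11500 in naive and 7228 and 6200 in HDM libraries, or 54.6% of naive. By family the HDM sum was 30.0% of naive for Sult, 36.1% for Cbr, 45.1% for Ugt, 48.4% for Aox, 61.3% for Ces, 68.9% for Aldh, 72.2% for Akr, 74.9% for Fmo, 75.9% for Pon and 98.8% for Adh. The count fell when any 1 of the 4 F KO libraries was left out, most without F KO HDM replicate 2. Each such fit leaves a lone library in a group, and the cause of the lower counts was not tested. Without F KO HDM replicate 2, Cbr2 (adjusted p = 0.0562) and Aox3 (adjusted p = 0.0718) were among the genes that lost their calls. With only the 4 F KO libraries in the fit, 29 fell and 3 rose. The club cell markers summed to 7232 to 7880 CPM in these HDM libraries against 13200 to 15970 CPM in naive ones, with 4 of 7 lower, goblet markers to 11.9 to 12.4 against 85.9 to 90.7 CPM, and basal markers to 10150 to 12760 against 9700 to 10950 CPM. The part of these markers in the enzymes' changes was not tested here either.

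Of the 43 genes that fell in F WT cultures, 24 also fell in F KO cultures, which is 55.8% of the first list and 96% of the second. Over all tested genes the shares were 21.7% and 84.3%, so most genes that fell in F KO cultures, members or not, were among those that fell in F WT cultures. The 2 comparisons share no library. The gene called lower in F KO and not in F WT cultures was Aldh3a2, the fatty aldehyde dehydrogenase, chosen here after its values were seen (-0.26 ± 0.06 against 0.00 ± 0.06 in F WT), and the difference between its responses did not pass the test (edgeR, adjusted p = 0.0572). The difference between the 2 responses was tested itself. It was called in 30 members, 29 with a higher KO response and 1, Aox1, with a lower one (-0.49 ± 0.12), against 11.2% of all tested genes called and 6.16% called higher. Aox1 lost this call without either F WT naive library, either F KO naive library or F KO HDM replicate 1 (adjusted p from 0.052 to 0.0802), and DESeq2 called 5 members lower, with Aldh2, Aldh7a1 and Pon2 among those it added. Of the 24 genes that fell in both, 18 fell less in F KO cultures by this test.

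Of the genes that fell in F WT cultures, 19 did not pass the test in F KO cultures. The difference between the responses was called, with a higher KO response, in 11 of these 19. It was not called for Akr1e1 (edgeR, adjusted p = 0.0822) and Cbr3 (adjusted p = 0.223), among others. Adh7 and Adh1 were among the 11. Their F KO responses were -0.05 ± 0.23 and -0.20 ± 0.43, and the responses of the genotypes differed by 4.34 ± 0.36 (edgeR, adjusted p = 6.45e-05) and 3.62 ± 0.72 (adjusted p = 0.0111). Fmo6 (3.48 ± 0.49) and Fmo2 (2.53 ± 0.40) likewise differed, with F KO responses of -0.39 and -0.42 that did not pass the test. Ces1f belonged with them, at -0.52 ± 0.29 in F KO and a difference of 4.37 ± 0.49. Aldh3a1 and Aldh3b2, chosen here after their values were seen, act on medium-chain and aromatic or lipid aldehydes. They fell by 2.69 and 2.85 in F WT cultures but had F KO responses of 0.10 and 0.30.

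Other members fell in both genotypes. Aldh1a1 fell by 1.17 ± 0.12 in F KO cultures, Aldh1a7 by 1.81 ± 0.18, Akr1c18 by 1.93 ± 0.18, Cbr2 by 1.52 ± 0.25, Ces1d by 0.79 ± 0.16 and Pon1 by 2.08 ± 0.31. Each of these fell less than in F WT cultures, by 3.80 for Aldh1a1, 3.25 for Aldh1a7, 2.51 for Akr1c18, 3.02 for Cbr2, 3.72 for Ces1d and 3.94 for Pon1. Sult1d1 fell by 4.24 ± 0.33 in F KO cultures, the largest fall there, and its genotype difference of 1.88 ± 0.64 did not pass the test (edgeR, adjusted p = 0.0796), although it was called by DESeq2 (adjusted p = 0.0224), with no filter on low counts (adjusted p = 0.000403) and without F KO naive replicate 1 (adjusted p = 0.027). Akr1a1 (-0.38 in F WT and -0.49 in F KO), Cbr1 (-0.89 and -0.65) and Pon3 (-0.67 and -0.60) gave differences between the genotypes of -0.11 ± 0.11, 0.23 ± 0.13 and 0.07 ± 0.24, none of which passed the test. The Pon3 call in F KO cultures was lost with library size only, with the replicate block (adjusted p = 0.066) and without any 1 of the 4 libraries. Akr1c14 (adjusted p = 0.0495) lost its F KO call under DESeq2, with no filter, with the compared libraries alone, with the replicate block (adjusted p = 0.0719) and without any 1 of the 4 libraries.

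Compared directly after HDM, F KO libraries were higher than F WT libraries in 40 of the 72 genes and lower in 7, while 29.2% of all tested genes were called, 14.9% higher and 14.3% lower. These values share the HDM libraries with the responses above and are no separate evidence. Of club, basal and goblet cell markers, 5 of 7, 5 of 6 and 2 of 5 were higher in F KO libraries. Of 7 fibroblast markers 3 were lower. The part of these markers in the enzymes' differences was not tested. The differences were 4.44 ± 0.28 for Adh7, 3.83 ± 0.13 for Aldh1a1, 3.64 ± 0.18 for Ces1d, 3.38 ± 0.38 for Fmo6 and 2.88 ± 0.26 for Cbr2. The 7 lower ones were small, from 0.24 to 0.73, and included Aldh7a1 (-0.73), Aox1 (-0.55), Akr1c13 (-0.54), Pon2 (-0.49), Aldh2 (-0.38) and Akr1b10 (-0.36), all of which had risen in F WT cultures. The count was 30, with 2 lower, without F WT HDM replicate 2, and 36, with 3 lower, without F KO HDM replicate 2. Akr1c13, Pon2, Aldh2 and Akr1b10 lost their calls in both cases. In naive female cultures the genotypes were not told apart: 0 of 72 were called with edgeR and with DESeq2, 2 had an unadjusted p under 0.05, and 0% of all tested genes were called.

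**Figure D5:**
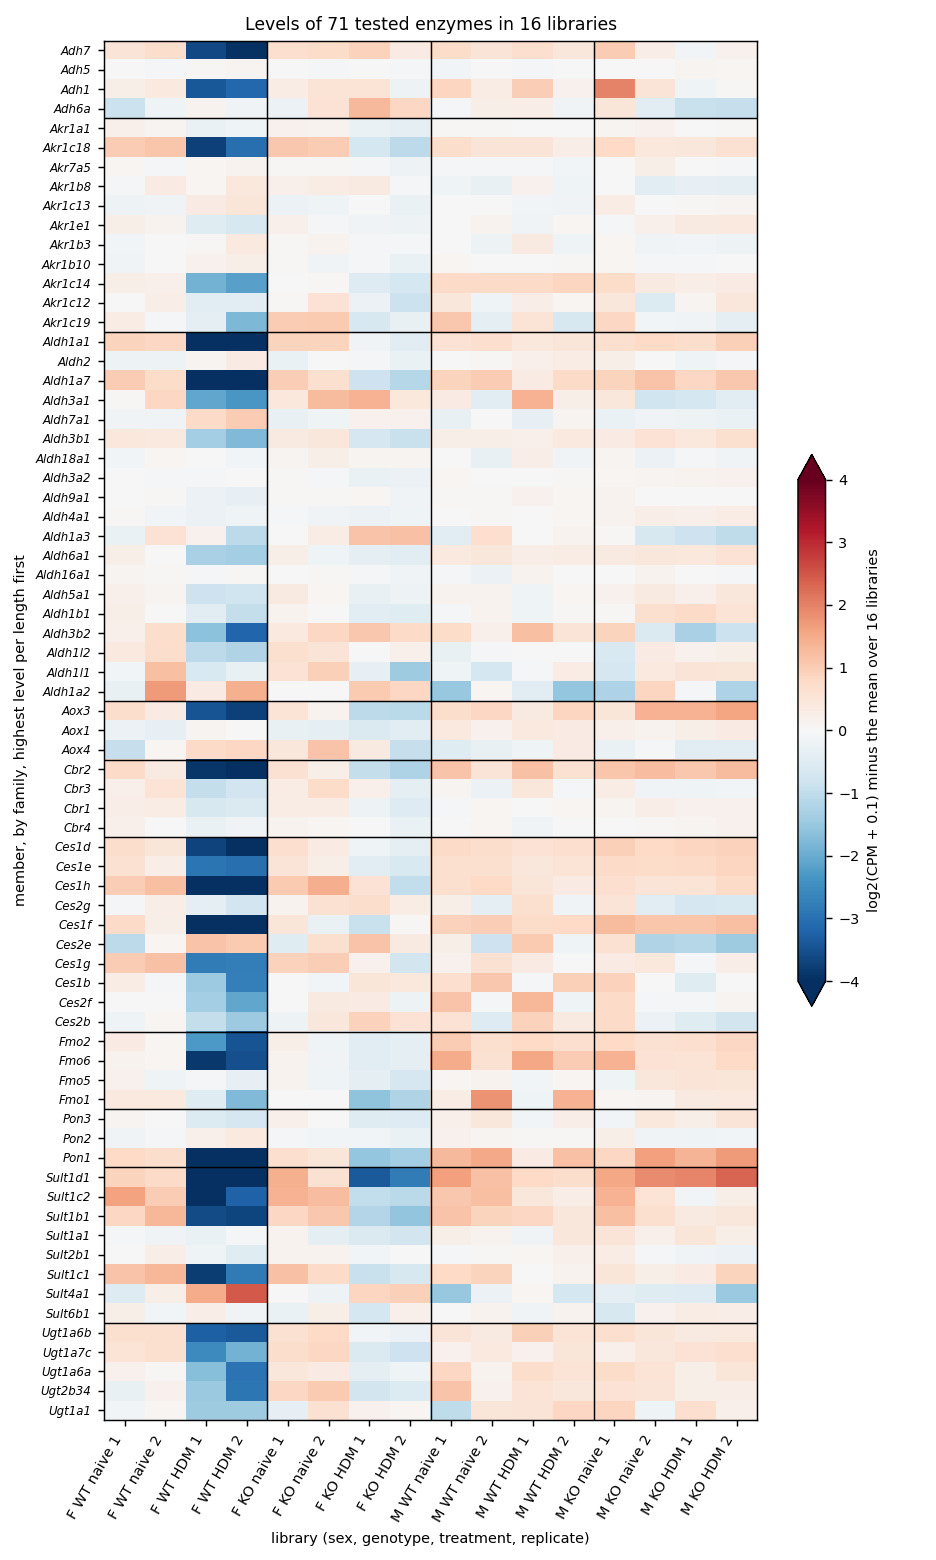
Levels of 71 tested genes (rows, by family, highest level per length first) in the 16 libraries (columns), as log2 of CPM plus 0.1 minus the gene's mean over the libraries, with the colour scale ending at 4 above and below. The F WT HDM columns hold nearly all dark blue cells. The F KO HDM columns are pale blue in Sult1b1, Sult1c1, Sult1c2, Cbr2, Aldh1a7 and Aox3 and darker blue in Sult1d1. The male HDM columns resemble the male naive ones.

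In male cultures no member passed the test after HDM. In M WT cultures 0 of 72 were called by edgeR and by DESeq2, 3 had an unadjusted p under 0.05, and the responses ran from -0.82 to 1.10 with a median of -0.01. In M KO cultures 0 were called by both tools, 8 had an unadjusted p under 0.05, and the responses ran from -1.68 to 0.57 with a median of -0.05. Of all 15993 genes 0% were called in either comparison, so this holds for the table as a whole. The summed CPM was 15970 and 12770 in M WT naive and 15810 and 13020 in M WT HDM libraries, and 16240 and 16650 in M KO naive and 15570 and 17280 in M KO HDM libraries. With no filter on low counts, 4 and 10 of the 101 members then tested were called in these 2 comparisons. The share of all genes called under that setting is not given here, so these 2 counts describe the processing and not the members. Club cell markers summed to 14490 to 16730 CPM in M WT naive and 14660 to 15390 CPM in M WT HDM libraries.

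The difference between the male and female HDM responses was tested for each genotype. In WT cultures it was called in 40 members, 37 with a higher response in males and 3 with a lower one, against 24.2% of all tested genes called and 12.8% higher. Among the largest differences of the genes shown were 5.46 ± 0.52 for Sult1d1, 5.43 ± 0.56 for Pon1 and 5.19 ± 0.68 for Sult1c1. Sult1b1 (4.89 ± 0.43), Ugt1a6b (4.81 ± 0.31) and Aldh1a1 (4.80 ± 0.17) came after them. The 3 lower ones, Aldh7a1 (-0.99), Akr1c13 (-0.69) and Pon2 (-0.51), were genes that rose in F WT cultures, and Pon2 lost this call without any 1 of the 8 libraries but F WT HDM replicate 1 (adjusted p from 0.0587 to 0.104). Cell type markers differed in the same comparison. The response was higher in males for 6 of 7 club, 5 of 6 basal, 4 of 5 goblet and 3 of 7 ciliated markers. It was lower in males for 1 of 7 fibroblast markers. The part of these markers in the enzymes' difference was not tested. In KO cultures 13 members were called, all with a higher response in males, against 3.56% of all tested genes called and 1.77% higher. Among them were Sult1d1 (4.66), Pon1 (2.33), Aox3 (1.90), Akr1c18 (1.85), Cbr2 (1.53) and Aldh1a1 (1.30). Of club and goblet cell markers, 2 of 7 and 2 of 5 had a higher response in males there. The count of 13 was 4 without M KO HDM replicate 2 or F KO HDM replicate 2, 6 without F KO naive replicate 1, 8 without M KO HDM replicate 1 and 20 without M KO naive replicate 2, the library in which Lman1 stood at 52.6% of the WT mean.

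After HDM, male WT libraries were higher than female WT libraries in 46 members and lower in 3, with 41.6% of all tested genes called, 21.3% higher and 20.3% lower. The differences were 6.04 ± 0.43 for Sult1d1, 6.09 ± 0.45 for Pon1, 4.88 ± 0.29 for Cbr2, 4.53 ± 0.18 for Ces1d and 4.34 ± 0.28 for Adh7. Of club, basal and goblet cell markers, 6 of 7, 5 of 6 and 5 of 5 were higher in M WT libraries too. Of the 7 fibroblast markers 3 were lower and 0 higher. The part of these markers in the enzymes' differences was not tested. The 3 members lower in males were Sult4a1 (-2.50), Aldh7a1 (-0.998) and Akr1c13 (-0.51). In KO cultures 32 members were higher in males and 8 lower, with 25.3% of all tested genes called, 12.9% higher and 12.4% lower. Sult1d1 (5.30 ± 0.33), Pon1 (3.03 ± 0.31), Aox3 (2.54 ± 0.27) and Cbr2 (2.27 ± 0.25) were among the higher ones. So was Fmo2 (1.12 ± 0.28), which lost its call without M KO HDM replicate 2 or either F KO HDM library. Of club and goblet cell markers, 6 of 7 and 4 of 5 were higher in M KO libraries. Of 6 basal cell markers 1 was higher and 1 lower. The part of these markers was not tested either.

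The 8 members lower in M KO than in F KO cultures after HDM, named here after their values were seen except Sult4a1, were Adh6a (-2.96), Sult4a1 (-2.13), Ces2e (-2.10), Aldh1a3 (-2.08), Aldh3b2 (-2.05), Aldh3a1 (-1.55), Ces2b (-1.41) and Ces2g (-1.16). Aldh1a3, a retinal dehydrogenase like Aldh1a1, had 83.8 and 86.9 CPM in F KO HDM and 21.5 and 19.0 CPM in M KO HDM libraries, with 18.3 to 60.5 CPM in the other 12. Ces2e had 37.7 and 21.91 CPM in F KO HDM and 7.56 and 6.30 CPM in M KO HDM libraries. It also differed between replicates elsewhere, with 25.8 and 7.21 CPM in M KO naive and 35.3 and 15.0 CPM in M WT HDM libraries. Adh6a held no more than 17 counts in any library. None of the 8 calls was left without M KO HDM replicate 2, when 25 members were called, all higher in males. Aldh1a3 and Sult4a1 were left without M KO HDM replicate 1, Adh6a and Aldh1a3 without F KO HDM replicate 1, and 4 of the 8 without F KO HDM replicate 2. Squamous markers summed to 1026 to 1326 CPM in F KO HDM and 176 to 187 CPM in M KO HDM libraries. Of the 6 tested, 3 were called lower in males, 0 higher and 3 were not called. Their part in the differences of this set was not tested.

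In naive cultures the sexes differed in few members. In WT cultures 1 of 72 was called, Aox1 (0.56 ± 0.08 higher in males, edgeR adjusted p = 0.0274), against 0.1% of all tested genes. In KO cultures 2 were called, among them Aox1 (0.51 ± 0.08, adjusted p = 0.0438), against 0.188% of all tested genes. Aox1 had 93.9 and 82.0 CPM in M WT naive and 82.5 and 80.2 CPM in M KO naive libraries, against 62.0 and 57.0 CPM in F WT naive and 58.5 and 55.9 CPM in F KO naive libraries. All 8 male libraries, from 80.15 to 94.98 CPM, lay above all 8 female ones, from 48.1 to 77.7 CPM. Leaving out 1 library ended the KO calls in each of 4 cases and the WT call in 3 of 4, all but that without M WT naive replicate 2. DESeq2 called 2 members in WT and 4 in KO cultures, and 15 and 21 members had an unadjusted p under 0.05. Between the genotypes 0 of 72 members were called in naive male cultures (3 with an unadjusted p under 0.05, 0 by DESeq2) and in male cultures after HDM (24 with an unadjusted p under 0.05, 6 by DESeq2), with 0% of all tested genes called. Their difference in HDM response was called in 0 members in males (10 with an unadjusted p under 0.05, 0 by DESeq2, 0% of all tested genes).

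Genes that supply or surround these enzymes were counted from fixed lists. Of 15 genes of cofactor supply, 6 fell and 1 rose in F WT cultures (median -0.38) and 4 fell in F KO cultures (median -0.15). The shares called, 46.7% and 26.7%, stood beside 43.1% and 10.4% of all tested genes. Papss2, which makes the sulfate donor used by Sult enzymes, fell by 1.80 ± 0.39 in F WT and 2.68 ± 0.43 in F KO cultures. Idh1 and Me1, sources of the NADPH used by reductases and monooxygenases, fell by 1.34 ± 0.09 and 0.85 ± 0.11 in F WT and by 0.61 ± 0.09 and 0.69 ± 0.11 in F KO cultures. Slc35b2, which carries the sulfate donor into the Golgi, rose by 0.38 ± 0.06 in F WT cultures. Of 16 tested genes for other drug and conjugate enzymes, 6 rose and 2 fell in F WT cultures, a share of 50% beside the background of 43.1%, with a median of 0.09. Gusb, which removes glucuronic acid, rose by 0.48 ± 0.06, while Sord, the sorbitol dehydrogenase, fell by 2.30 ± 0.21. In F KO cultures 1 of these 16 rose and 1 fell, or 12.5% beside 10.4%.

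Of 17 tested genes of retinoid handling, 6 rose and 7 fell in F WT cultures and 5 rose and 2 fell in F KO cultures, shares of 76.5% and 41.2% beside 43.1% and 10.4% of all tested genes. Stra6, the retinol uptake receptor, rose by 2.80 ± 0.52 in F WT and 2.52 ± 0.51 in F KO cultures, and Cyp26b1, which degrades retinoic acid, by 2.23 ± 0.36 and 1.55 ± 0.36. Retsat, a retinol saturase, fell by 1.01 ± 0.10 in F WT cultures. Beside Aldh1a1 and Adh7, which also act on retinoids and fell, the list thus moved in both directions. Of 12 tested regulators, 4 fell and 2 rose in F WT cultures and none was called in F KO cultures. The F WT share of 50% was near the background of 43.1%. Ahr and Arnt, the partners of the aryl hydrocarbon receptor complex, fell by 0.75 ± 0.15 and 0.59 ± 0.10, Bach1, a repressor at antioxidant response elements, by 0.59 ± 0.12, and Ppara, a lipid-sensing receptor, by 2.42 ± 0.50, while Mafg rose by 0.53 ± 0.13. Nfe2l2 (-0.15 ± 0.08) and Keap1 (-0.13 ± 0.06) did not pass the test. In both male HDM comparisons, 0 genes of the 4 lists were called.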

How the data were processed

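The authors deposited read counts that were not normalized, 1 row per Ensembl gene and 1 column for each of the 16 libraries. Per the submitters' processing notes the tools were Trimmomatic 0.36, STAR 2.5.2b, featureCounts (Subread 1.5.2) and DESeq2, with the build GRCm38. The strand setting, the treatment of reads with several matches and the annotation release were not given in the sources used here. Columns were matched to samples by sex, genotype, treatment and replicate number, and a column without a number was taken as replicate 1 because its partner ends in 2. Identifiers were matched to GENCODE M21 (49056 of 49315). Members with at least 10 counts in at least 2 libraries were described.

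Genes were filtered by group, scaled with TMM and fitted with edgeR 4.0.16 in R 4.3.3, with its quasi-likelihood test on a mean for each of 8 groups over all 16 libraries. Tests were two-sided, with Benjamini-Hochberg adjustment over all 15993 genes in each comparison and a threshold of 0.05. Standard errors were taken from the log2 difference and its F statistic. CPM were scaled with TMM factors, and RPKM are CPM per kilobase of merged exons. A gene with 3 counts or fewer was treated as being at the floor. Reads carry no known molecular identifiers, so floors and intervals cover counting error only. Totals ran from 21860698 to 43442188 counts.

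In each family, values are given for up to 3 members with the smallest p for the F WT response and for the member with the highest RPKM. Values are also given for members called in a male HDM response or a naive comparison, and for called members that moved against most of their family. Some members and listed genes chosen this way are not reported here. The members, gene lists and marker lists were chosen with earlier results of these data known. Promoters of 300 bases were read from RefSeq on GRCm38. Alternatives were DESeq2 1.42.0, other scalings and filters, the compared libraries alone, a replicate block and leaving out each library. The steps were tested on simulated counts. Other steps used Python 3.11.15, numpy 2.4.6, pandas 2.3.3, scipy 1.17.1 and matplotlib 3.10.9.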

Additional observations from a re-analysis of the deposited data

Results flagged for a closer look

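The HDM response differed between the sexes or the genotypes, by a test of the difference itself (edgeR, adjusted p under 0.05), in many members. Male minus female, in WT cultures, it was called in 40 members. Among them were the oxidising enzymes Adh1 (3.86), Adh7 (4.33), Aldh1a1 (4.80), Aldh1a7 (4.67), Aldh3b1 (2.02), Aldh7a1 (-0.99), Aox3 (4.01), Fmo2 (2.87) and Fmo6 (4.08). Reductases among them were Akr1a1 (0.33), Akr1c13 (-0.69), Akr1c14 (2.44), Akr1c18 (4.21), Akr1e1 (0.66), Cbr1 (0.91), Cbr2 (4.599) and Cbr3 (1.51), and hydrolases were Ces1d (4.402), Ces1e (3.29), Ces1f (4.71), Pon1 (5.44) and Pon2 (-0.51). Transferases were Sult1b1 (4.89), Sult1c1 (5.19), Sult1d1 (5.46), Ugt1a6a (2.57), Ugt1a6b (4.81) and Ugt1a7c (2.94). Akr1a1 lost its call without any 1 of the 8 libraries, and Akr1e1 without F WT naive replicate 1 or F WT HDM replicate 2.

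In KO cultures the same difference was called in 13 members, Akr1c18 (1.85), Aldh1a1 (1.30), Aldh1a7 (1.74), Aldh3b1 (1.26), Aox3 (1.90), Cbr1 (0.64), Cbr2 (1.53), Ces1e (0.96), Pon1 (2.33), Sult1b1 (1.86), Sult1c1 (2.15), Sult1d1 (4.66) and Ugt1a7c (1.79). Akr1c18, Aldh1a1, Aldh1a7 and Sult1d1 kept the call without any 1 of the 8 libraries, and the other 9 lost it without M KO HDM replicate 2 and without F KO HDM replicate 2. Cbr2 lost it without any 1 library but M KO naive replicate 2 or F KO naive replicate 2, with adjusted p from 0.0686 to 0.168, and with the replicate block (adjusted p = 0.0556). Sult1c1 lost it without any 1 library and with the replicate block (adjusted p = 0.0799).

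The response of F KO minus that of F WT cultures was called in 30 members. Oxidising enzymes among them were Adh1 (3.63), Adh7 (4.35), Aldh1a1 (3.80), Aldh1a7 (3.25), Aldh3b1 (0.76), Aox1 (-0.49), Aox3 (2.72), Fmo2 (2.53) and Fmo6 (3.48). Reductases and hydrolases among them were Akr1c14 (1.77), Akr1c18 (2.51), Cbr2 (3.02), Ces1d (3.72), Ces1e (2.53), Ces1f (4.37) and Pon1 (3.95), and transferases were Sult1b1 (2.87), Sult1c1 (4.15), Ugt1a6a (1.77), Ugt1a6b (3.59) and Ugt1a7c (1.40). Aldh3b1 and Ugt1a6a lost this call without any 1 of the 8 libraries but F WT HDM replicate 1, and Ugt1a7c without F KO naive replicate 2. Club cell markers differed in the same comparison in 4 of 7 cases and basal cell markers in 5 of 6, all with the higher response in F KO cultures, and their part in the enzymes' difference was not tested. Both F KO HDM libraries held Lman1 at over 50% of the WT mean.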

How the results depend on the processing

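Over 4309 recomputed values of named members, 178 lost and 61 gained a call. None of the 2432 whose member was called in the reported comparison changed sign, while 89 of the 1877 others did, none of them called. With no filter on low counts, 101 members were tested in place of 72. Of these, 4 were called in the M WT and 10 in the M KO HDM response. The naive sex difference was called in 12 for WT and 19 for KO cultures. The genotype difference was called in 22 in M HDM cultures and in 1 and 2 in naive F and M cultures. The sex difference of the KO response had 31 calls and the genotype difference of the M response 13. DESeq2, with 72 members tested, gave 2 and 4 for the naive sex differences of WT and KO cultures. It gave 6 for the genotype difference of M HDM cultures and 20 for the sex difference of the KO response. These counts stand without the share of all genes called under the same setting, so they describe the processing and not the members. The naive sex differences had 0 calls in WT and 0 in KO cultures with only the compared libraries, and 0 in KO cultures with library size only. Library size only moved the median of all genes in the F WT response from -0.02 to -0.10.

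Leaving out 1 library leaves a lone library whose spread is taken from the other groups. The counts then ran from 40 to 47 (F WT response), 11 to 19 (F KO response), 40 to 48 and 25 to 31 (sex difference after HDM, WT and KO), 0 to 1 and 0 to 0 (naive sex difference, WT and KO), 30 to 43 (genotype difference in F HDM cultures), 34 to 40 and 4 to 20 (sex difference of the response, WT and KO) and 21 to 32 (genotype difference of the F response). They were 0 in all other comparisons. The cause of these shifts was not tested.

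With the replicate block, the F WT response gave 48 calls, the F KO response 23, the sex difference after HDM 47 in WT and 37 in KO cultures, the genotype difference in F HDM cultures 46, and the naive sex difference 1 in WT and 0 in KO cultures. The sex difference of the response had 43 calls in WT and 11 in KO cultures, and the genotype difference of the F response 28. Deviations of log CPM from the group mean were compared between the naive and HDM libraries numbered 1. Over genes these deviations correlated at 0.286 (F WT), -0.051 (F KO), 0.437 (M WT) and -0.144 (M KO). The numbers were thus not shown to pair the cultures.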
